A study of Rattus norvegicus with 12 samples.

Results

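The levels of 4 genes of calcium handling and electrical coupling were followed in the left ventricle of neonatal rats: Cacna1c, Ryr2, Atp2a2 and Gja1. They were chosen by their Ensembl identifiers, ENSRNOG00000007090, ENSRNOG00000017060, ENSRNOG00000001285 and ENSRNOG00000000805, and are 4 of 34733 counted rows. Sprague-Dawley pups of both sexes were operated on at postnatal day 1, either by ABS, a banding that narrows the abdominal aorta with a ligature, or by sham surgery. Left ventricles were taken at postnatal day 3 (P3) or 7 (P7) for poly-A RNA sequencing, with 3 rats in each of the 4 groups, and the sex of each rat was not given. The sample labels call the tissue left ventricular myocardiocytes, while the study's methods describe whole left ventricles, which also hold fibroblasts, vessel cells and blood cells. The genes that mark those cell types were not analysed here, because the files pair no identifier with a symbol.

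Each heartbeat of the ventricle starts with calcium that enters the cardiomyocyte from outside and triggers a larger release from the sarcoplasmic reticulum, the internal calcium store. Cacna1c encodes the pore of the L-type channel through which calcium enters. Ryr2 encodes the ryanodine receptor, a very large channel that releases calcium from the store, and Atp2a2 encodes SERCA2, the pump that returns calcium to the store so that the muscle relaxes. Gja1 encodes connexin 43, which forms the gap junctions that pass the electrical impulse from cell to cell. In the newborn heart the store and its coupling to the surface channels are still maturing, and connexin 43 is not yet confined to the cell ends.

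The sequences just before the annotated starts of the genes are shown as a description. The 4 genes were lowest in the same libraries, as given below, but how many of all genes were so was not counted. No link between the motifs and the levels was tested. They are the 250 bases before the start in the RefSeq annotation of the assembly GRCr8, 5′ to 3′ on the strand of the gene, and which start was in use in these ventricles was not measured. The windows are chr4:154051749-154051998 on the minus strand for Cacna1c, and chr17:63081277-63081526, chr12:39733269-39733518 and chr20:36302314-36302563 on the plus strand for Ryr2, Atp2a2 and Gja1. Capitals mark matches on either strand to 6 motifs. The GC box was searched as GGGCGG and the TATA box as TATAAA. For GATA factors the letters were AGATAA, and for AP-1 they were TGANTCA. The MCAT element was read as CATTCC, and the CCAAT box by its name.
Cacna1c: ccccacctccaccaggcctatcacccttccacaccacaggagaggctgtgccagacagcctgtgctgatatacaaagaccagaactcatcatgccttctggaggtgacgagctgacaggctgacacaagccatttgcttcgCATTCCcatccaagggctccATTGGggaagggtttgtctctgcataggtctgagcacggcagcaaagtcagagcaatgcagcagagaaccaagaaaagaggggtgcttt
Ryr2: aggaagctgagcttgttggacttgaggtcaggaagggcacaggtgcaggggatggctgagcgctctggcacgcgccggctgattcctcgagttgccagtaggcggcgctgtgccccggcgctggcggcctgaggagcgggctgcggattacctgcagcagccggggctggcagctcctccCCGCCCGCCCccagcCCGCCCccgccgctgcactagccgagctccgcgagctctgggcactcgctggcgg
Atp2a2: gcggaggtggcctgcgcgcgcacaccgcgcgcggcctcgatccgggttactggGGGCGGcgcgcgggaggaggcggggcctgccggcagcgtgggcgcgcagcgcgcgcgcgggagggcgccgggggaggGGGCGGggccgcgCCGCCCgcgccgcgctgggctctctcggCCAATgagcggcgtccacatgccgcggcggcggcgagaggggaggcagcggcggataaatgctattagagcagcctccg
Gja1: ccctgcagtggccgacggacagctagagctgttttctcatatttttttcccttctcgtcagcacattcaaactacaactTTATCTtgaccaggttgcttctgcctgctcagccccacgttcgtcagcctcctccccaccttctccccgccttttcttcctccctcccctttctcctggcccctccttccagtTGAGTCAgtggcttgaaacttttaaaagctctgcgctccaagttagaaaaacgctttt
The windows of Atp2a2 and Ryr2 were rich in G and C, at 80% and 72%, against a median of 51.2% over 33469 promoters. Those of Cacna1c and Gja1 were at 54.4% and 51.2%. Atp2a2 and Ryr2 each held 3 GC boxes, a motif found in 30.5% of all windows, and the neighbouring boxes of Ryr2 at 70 and 66 bases before the start overlapped. A CCAAT box (34% of windows) stood in those of Atp2a2 and Cacna1c, and an MCAT element (12.1%) in that of Cacna1c. Gja1 held a GATA site (10.3%) and an AP-1 site (6.34%), the latter 58 bases before the start. The TATA box letters, present in 12.9% of windows, were in none of the 4. No motif occurred in all 4 windows.

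The 12 libraries had 14268210 to 17286278 counts, so depth differed little. At P7 they resembled each other, each with 18579 to 18982 genes at 1 count or more. At P3, ABS replicate 1 had 15266 such genes, ABS replicate 2 had 15719 and sham replicate 2 had 15451, while ABS replicate 3 had 17530 and sham replicates 1 and 3 had 18359 and 17259. These 3 libraries with the fewest detected genes, which come from both surgeries, also gave the largest shares of their counts to their 10 most abundant genes, 21.6% to 25.5%, against 15.7% to 19.4% in the other 9. The comparisons that rest on P3 are therefore given with and without them. Levels are given in CPM, the count as a share of the library total in the usual unit after TMM scaling, a factor per library that offsets differences in composition. The lowest count of any of the 4 genes in a library was 844, so the counting error of a level was at most 3.44%.

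Cacna1c, the calcium entry channel, was at 79.8, 60.6 and 213.6 CPM after ABS at P3 and at 234.7, 68.7 and 98.3 CPM after sham surgery, in the order of replicates 1, 2 and 3 as throughout. A high and a low level thus occurred after both surgeries, and the groups overlapped. At P7 it was at 267.0, 242.4 and 257.1 CPM after ABS and at 229.3, 260.2 and 244.0 CPM after sham surgery. Of the 6 P3 libraries, sham replicate 1 reached the range of P7.

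Ryr2, the release channel, varied most. In the ABS group at P3 it was at 101.5, 133.1 and 942.5 CPM in replicates 1, 2 and 3, and in the sham group at 887.4, 76.7 and 275.9 CPM. The highest of these libraries was 12.3 times the lowest. At P7 the ABS libraries were at 1188, 966 and 1298 CPM and the sham libraries at 1071, 1151 and 1065 CPM, a range of 1.34 times. Ranked by count within its own library, Ryr2 was between the 55th and 69th most counted gene at P7, but between the 68th and the 2249th at P3. Its levels in ABS replicate 3 and sham replicate 1 at P3 lay just below those of P7, and the other 4 libraries of P3 lay far below.

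Atp2a2, the calcium pump, was among the 23 most counted genes of every library and varied least. It was at 4930, 5062 and 6608 CPM in ABS replicates 1, 2 and 3 at P3 and at 6595, 4477 and 5351 CPM in the sham replicates. At P7 it was at 7852, 7641 and 7586 CPM after ABS and at 6755, 8086 and 6316 CPM after sham surgery. ABS replicate 3 and sham replicate 1 of P3 were above sham replicate 3 of P7, so the days overlapped.

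Gja1, the gap junction gene, was at 373.1, 355.8 and 887.5 CPM in ABS replicates 1, 2 and 3 at P3 and at 764.0, 269.8 and 503.5 CPM in the sham replicates. At P7 it was at 680.7, 680.6 and 748.5 CPM after ABS and at 687.2, 778.0 and 632.5 CPM after sham surgery. The highest level of all 12 libraries was that of ABS replicate 3 at P3, and sham replicate 1 of P3 was above 5 of the 6 P7 libraries. The other 4 libraries of P3 were below every P7 library.

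**Figure D1:**
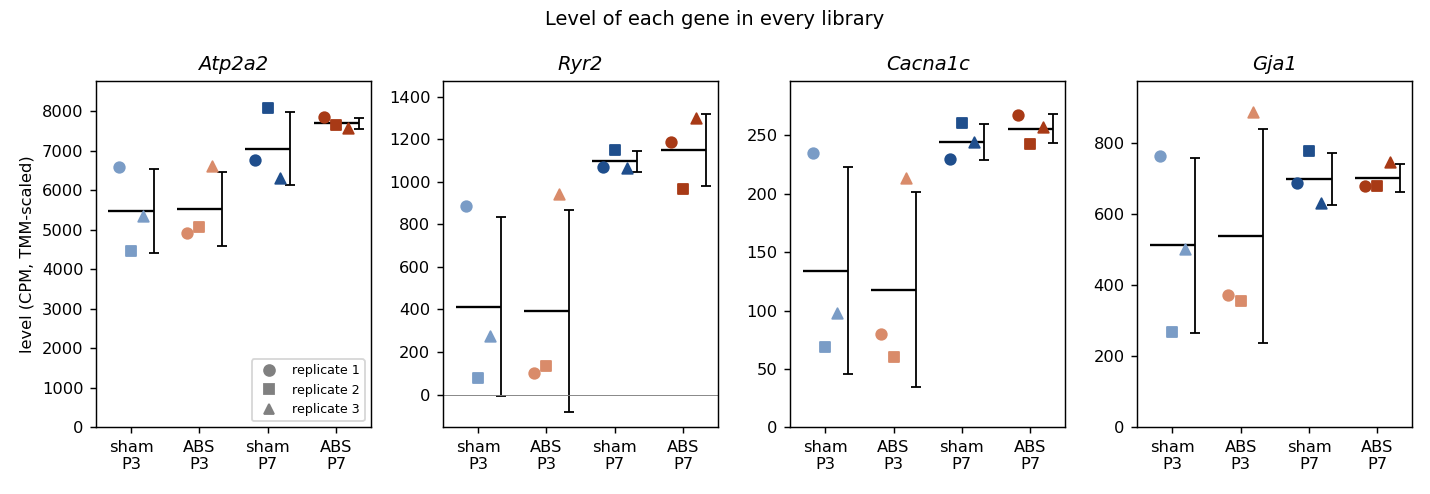
Level of each gene (y axis, CPM after TMM scaling) in the 12 libraries by surgery and day, with a point per library, its replicate number as the marker, a line at the group mean and a bar for 1 SD (n = 3). The P7 libraries lie close together, while those of P3 spread widely after both surgeries, most of all for Ryr2, from 76.7 to 942.5 CPM.

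The spread at P3 differed between the 4 genes. Over the 6 P3 libraries, the SD of log2 CPM was 1.58 for Ryr2, 0.84 for Cacna1c, 0.67 for Gja1 and 0.23 for Atp2a2. The median SD over the 9130 genes that averaged 10 CPM or more was 0.42, so Atp2a2 varied less than the typical gene, and 270 of these genes varied more than Ryr2. At P7 the SD was 0.15 for Ryr2, 0.14 for Atp2a2, 0.11 for Gja1 and 0.08 for Cacna1c, beside a median of 0.12. All 4 genes were lowest in the 3 P3 libraries with the fewest detected genes, after both surgeries. Sham replicate 3 of P3, with 17259 detected genes, came next for each of them. ABS replicate 3 of P3, with 17530, held Ryr2 at 942.5 CPM, against 275.9 CPM in that sham library. ABS replicate 1 had the fewest detected genes, but Ryr2 was lowest in sham replicate 2 and Cacna1c in ABS replicate 2. The share of all genes that were lowest in those 3 libraries was not counted. Whether the pattern is particular to the 4 genes was therefore not tested.

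**Figure D2:**
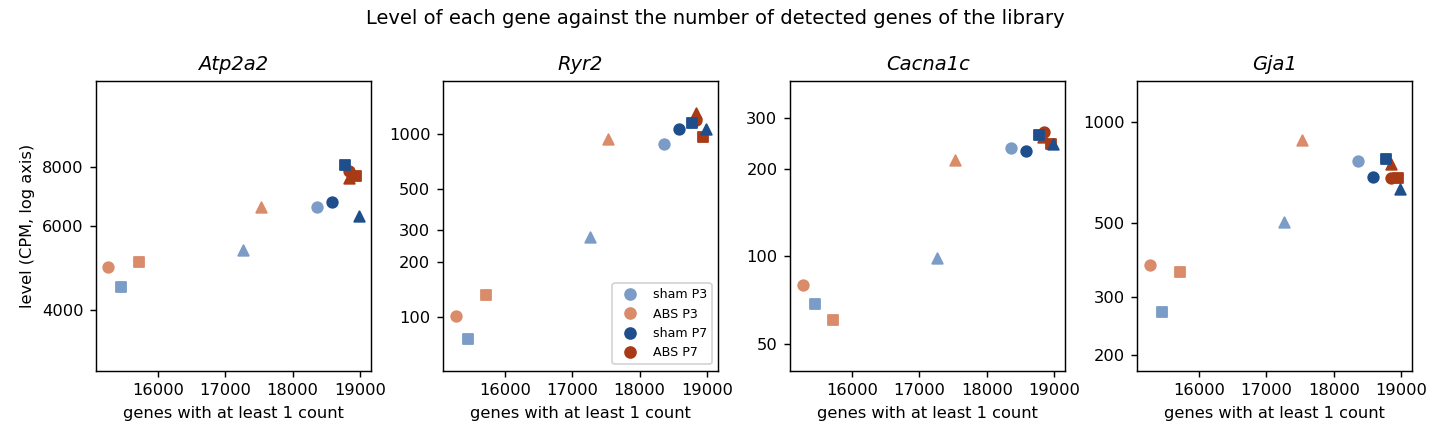
Level of each gene (y axis, CPM on a log axis) against how many genes had 1 count or more (x axis) in the 12 libraries, with the group as the colour and the replicate as the marker (circle 1, square 2, triangle 3). The 3 libraries with 15266 to 15719 detected genes hold the lowest levels of all 4 genes, and the P7 libraries lie at the right.

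Banding was compared with sham surgery at P3 to ask whether these genes differed early after the operation. Blood pressure could not be measured by the study at this age. The mean level of Cacna1c was 118 ± 83.4 CPM after ABS and 133.9 ± 88.6 CPM after sham surgery (SD, n = 3 each). The corresponding means of Ryr2 were 392.3 ± 476.7 and 413.3 ± 422.5 CPM, those of Atp2a2 were 5533 ± 933.3 and 5474 ± 1065 CPM, and those of Gja1 were 538.8 ± 302.1 and 512.4 ± 247.2 CPM. No gene differed beyond the spread of its libraries: the log2 fold changes from edgeR's quasi-likelihood test were -0.17 (standard error 0.62) for Cacna1c, -0.06 (1.09) for Ryr2, 0.03 (0.30) for Atp2a2 and 0.09 (0.51) for Gja1, each with an adjusted p of 1. The groups overlapped for all 4 genes, where 3.73% of 15236 genes did not overlap. With edgeR, 0 of 14222 genes (0.0%) had an adjusted p under 0.05, and 0.33% had an unadjusted p under 0.05 (47 genes), none of the 4 among them. DESeq2 gave 4 of 20149 genes and limma 0 of 14222 at the adjusted threshold, again without the 4. The 95% interval of the fold of Ryr2 ran from 0.16 to 5.67 and that of Atp2a2 from 0.63 to 1.67. A change of several fold in Ryr2 thus lay within its interval. The smallest change that these libraries could detect was not computed. In these whole ventricles, fewer cardiomyocytes and less RNA per cardiomyocyte cannot be told apart. An exact permutation test of the log2 levels gave p = 0.7 to 1 for the 4 genes, and 0.1 is the smallest that 3 against 3 allow. Single libraries set the direction: the log2 fold change of Ryr2 was -1.81 without ABS replicate 3 and 1.18 without sham replicate 1, and that of Gja1 was -0.48 and 0.50. Without the 3 libraries with the fewest detected genes, 1 ABS library remains against 2 sham libraries, and the log2 fold changes, given with no test, were 0.70 for Ryr2, 0.49 for Gja1, 0.36 for Cacna1c and 0.15 for Atp2a2. With detected genes as a covariate, Ryr2 (0.94) and Gja1 (0.55) had an unadjusted p under 0.05 in edgeR, as 11.3% of all genes did, and neither passed when adjusted (adjusted p = 0.154 and 0.266 from edgeR).

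At P7, 6 days after surgery, the same comparison was far more precise. The mean level of Atp2a2 was 7693 ± 140.3 CPM after ABS and 7052 ± 921.5 CPM after sham surgery, and that of Ryr2 was 1151 ± 169 and 1096 ± 47.9 CPM (SD, n = 3 each). Cacna1c was at 255.5 ± 12.4 and 244.5 ± 15.5 CPM, and Gja1 at 703.3 ± 39.2 and 699.2 ± 73.5 CPM. The fold of ABS against sham was 1.09 for Atp2a2 (95% interval 0.93 to 1.28), 1.05 for Ryr2 (0.89 to 1.24), 1.04 for Cacna1c (0.93 to 1.18) and 1.01 for Gja1 (0.87 to 1.16). Each had an adjusted p of 1 from edgeR's quasi-likelihood test, and the exact permutation tests gave p = 0.4 to 1. The intervals of the 4 genes together reached from 0.87 to 1.28. For all 4 genes the ABS and sham libraries overlapped, where 8.83% of 15236 genes did not. With edgeR, 0 of 14635 genes (0.0%) passed the adjusted threshold, while 3.4% (498 genes) had an unadjusted p under 0.05, without the 4. DESeq2 gave 10 of 22085 genes and limma 0 of 14635 at the adjusted threshold, none of the 4 among them.

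The effect of ABS was then compared between the days over all 12 libraries. The interaction of surgery and day, the log2 fold change of ABS at P7 minus that at P3, was 0.25 (standard error 0.69) for Cacna1c, 0.15 (1.22) for Ryr2, 0.11 (0.28) for Atp2a2 and -0.06 (0.56) for Gja1. Every adjusted p was 1 from edgeR's quasi-likelihood test. Leaving out 1 library turned the direction of each gene, with a range of -1.11 to 1.86 for Ryr2, -0.46 to 0.97 for Cacna1c, -0.50 to 0.47 for Gja1 and -0.073 to 0.24 for Atp2a2. With detected genes as a covariate the interaction was -0.98 for Ryr2 and -0.58 for Gja1, both at an unadjusted p under 0.05 in edgeR, as 13.8% of all genes were, and neither passed when adjusted (adjusted p = 0.188 and 0.242 from edgeR). At an unadjusted p under 0.05 were 1.16% of 15236 genes (176 genes), without the 4. At the adjusted threshold edgeR gave 0 genes (0.0%), DESeq2 5 of 22592 and limma 1 of 15236, again none of the 4.

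**Figure D3:**
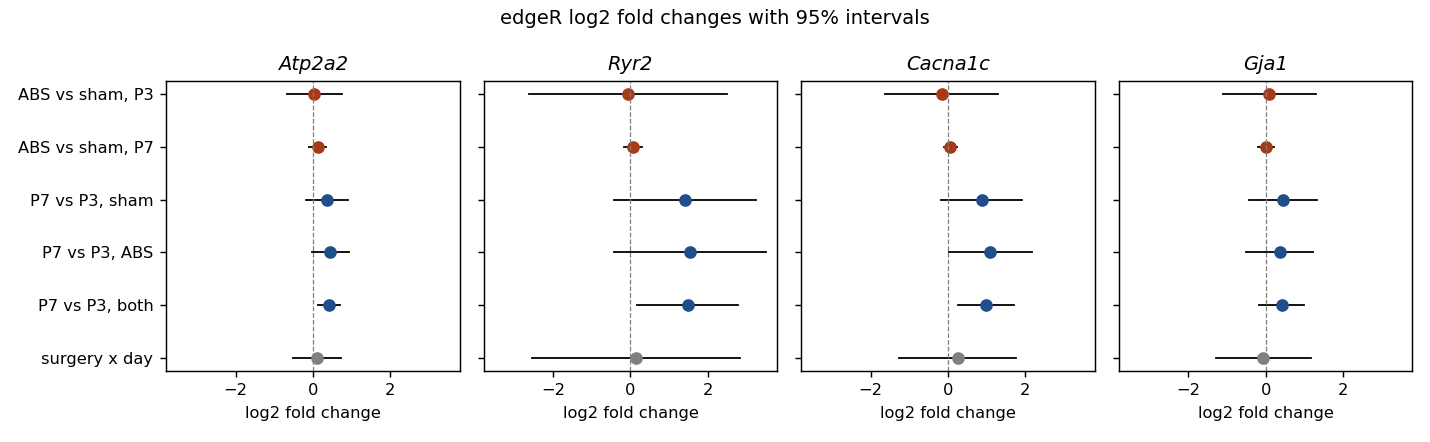
Log2 fold change from edgeR (x axis; points) with its 95% interval (lines) for each gene in 6 comparisons (y axis): ABS against sham at P3 and P7, P7 against P3 in the sham group, the ABS group and both together, and the interaction of surgery and day. At P7 the intervals of ABS against sham are narrow and hold 0, and those of P3 and of Ryr2 between the days are wide.

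All 4 genes had higher mean levels at P7 than at P3 after both surgeries. In the sham group the fold of P7 against P3 was 2.65 for Ryr2, 1.82 for Cacna1c, 1.36 for Gja1 and 1.29 for Atp2a2. In the ABS group it was 2.91 for Ryr2, 2.14 for Cacna1c, 1.29 for Gja1 and 1.37 for Atp2a2. Within a surgery, 0 of the 4 genes passed edgeR's adjusted threshold, passed by 1 of 14619 genes after sham surgery (0.00684%) and by 2 of 14504 after ABS (0.0138%). The adjusted p from edgeR were 0.35 to 0.49 after sham surgery and 0.28 to 0.55 after ABS. Unadjusted p under 0.05 were found for 16.1% of the genes after sham surgery, without the 4. After ABS they were found for 17.7%, with Cacna1c alone of the 4. DESeq2 passed 412 of 21410 genes after sham surgery and 490 of 21249 after ABS at the adjusted threshold, 0 of the 4 among them. With so few genes passing, 0 of the 4 says little about them. limma with sample quality weights, which gives less weight to libraries that fit poorly, passed 45.9% and 46.8% of the genes, and all 4 were higher at P7 in both. Which libraries were given less weight was not examined. After ABS its log2 fold change of Ryr2 was 3.01, against 1.54 from edgeR. Without ABS replicate 3 of P3, the ABS library of that day with the most detected genes, edgeR gave 3.27. Ryr2 did not overlap between the days in either surgery group, and Atp2a2 and Cacna1c did not in the ABS group. Over all genes, the days did not overlap for 29.6% after sham surgery and for 27.7% after ABS.

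With both surgeries together, P7 was compared with P3 over 6 libraries against 6. The mean level of Ryr2 was 1123 ± 115.1 CPM at P7 and 402.8 ± 403 CPM at P3, and that of Cacna1c was 250 ± 13.9 and 125.9 ± 77.4 CPM (SD, n = 6 each). Atp2a2 was at 7373 ± 686.1 and 5504 ± 896 CPM, and Gja1 at 701.3 ± 52.7 and 525.6 ± 247.3 CPM. By edgeR's quasi-likelihood test Atp2a2 rose by 0.42 on the log2 scale (standard error 0.13, adjusted p = 0.0499). The other 3 did not pass: 1.48 (0.60, adjusted p = 0.0958) for Ryr2, 0.99 (0.33, adjusted p = 0.0579) for Cacna1c and 0.42 (0.27, adjusted p = 0.254) for Gja1. Thus 1 of the 4 genes passed, where 17.1% of 15236 genes did, 5.59% of all genes upward (852 up and 1751 down). The median log2 fold change of the 4 genes was 0.71, and that of all genes tested was 0.03. Scaling to the total counts in place of TMM added 0.20 to the median log2 difference of all genes between the days and gave 1010 genes up and 787 down. Under that scaling the log2 fold changes were 1.57 for Ryr2, 1.13 for Cacna1c, 0.60 for Atp2a2 and 0.56 for Gja1, and Atp2a2 alone passed (adjusted p = 0.0397 from edgeR's test). The call of Atp2a2 sat at the threshold and was lost in 10 of the 12 fits that each left out 1 library. Single libraries also decided the other calls. Without ABS replicate 3 of P3, Ryr2, Cacna1c and Gja1 passed (adjusted p = 0.015, 0.00956 and 0.0403 from edgeR's test), as did 39.7% of all genes. Without sham replicate 1 of P3, Ryr2 and Cacna1c passed (adjusted p = 0.0271 and 0.00919 from edgeR's test), as did 35.2%. DESeq2 put Ryr2, Cacna1c and Atp2a2 past the adjusted threshold (adjusted p = 0.0324, 0.0216 and 0.0163) and Gja1 not (0.252), where 18.2% of its genes passed.

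The exact permutation test of the log2 levels of each gene, over all 924 divisions of the libraries into 6 and 6, weighs each library equally on the log scale. Ryr2 was higher at P7 by 2.17 on the log2 scale (p = 0.0022, the smallest that this exact test can give), with no overlap of the days, which held for 10.5% of 15236 genes. Cacna1c was higher by 1.2 (exact p = 0.0043) and Atp2a2 by 0.43 (exact p = 0.0087), with some overlap. The share of all genes with so low an exact p was not counted. In edgeR, 5731 of 15236 genes had an unadjusted p under 0.05 between the days. The difference of Gja1 was 0.54 (exact p = 0.0866). These p-values are not adjusted, and 20 exact tests of single genes were made over the comparisons, beside those repeated under other settings. The log2 differences of Ryr2, Cacna1c and Gja1 were larger here than in edgeR, which compares mean counts. That of Atp2a2 was nearly the same, at 0.43 against 0.42.

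The difference between the days depended on which P3 libraries were used. Without the 3 P3 libraries with the fewest detected genes, the log2 difference at P7 by the exact test was 0.87 for Ryr2 (p = 0.0119, the smallest exact p of 6 against 3) and 0.55 for Cacna1c (exact p = 0.0238). It was 0.25 for Atp2a2 (exact p = 0.0714) and 0.00 for Gja1 (exact p = 1). Ryr2 had no overlap of the days before any library was left out, so leaving out P3 libraries could not bring one. Its exact p was thus fixed in advance and adds no support. The 3 libraries left out held the lowest levels of all 4 genes and were chosen after seeing the data. The P3 libraries left held Ryr2 at 942.5 CPM (ABS replicate 3), 887.4 CPM (sham replicate 1) and 275.9 CPM (sham replicate 3). The lowest P7 library was at 966 CPM, so sham replicate 3 alone lay far below P7. The share of all genes with no overlap in these libraries was not counted. By edgeR's quasi-likelihood test on the same 9 libraries, 0 of the 4 genes passed, where 3.15% of 16054 genes did, with adjusted p of 0.25 for Ryr2, 0.29 for Cacna1c, 0.31 for Atp2a2 and 0.86 for Gja1. The fold from that fit was 1.57 for Ryr2, 1.35 for Cacna1c, 1.17 for Atp2a2 and 0.96 for Gja1. In the ABS group, where ABS replicate 3 was then the only P3 library, the log2 fold change of Gja1 was -0.35, given with no test because the spread of the P7 libraries alone would stand for that of P3. When ABS replicate 3 was left out in place of the others, all 4 genes passed in the ABS group, as did 50.1% of all genes, with log2 fold changes of 3.27 for Ryr2, 1.84 for Cacna1c, 0.92 for Gja1 and 0.60 for Atp2a2. Without sham replicate 1 of P3, Ryr2 (2.62) and Cacna1c (1.53) passed in the sham group, as did 32.2% of all genes. Detected genes were also entered in the fit as a covariate. The log2 fold changes over both surgeries were then -0.54 for Ryr2, -0.18 for Cacna1c, -0.55 for Gja1 and 0.038 for Atp2a2. Only 124 of 15236 genes passed, none of the 4 among them. In that fit of the ABS group alone, Ryr2 (-1.60, adjusted p = 0.036 from edgeR's test) and Gja1 (-1.08, adjusted p = 0.0446) passed in the downward direction, as 7.22% of the genes passed in either. The number of detected genes and the day moved together in these libraries, so their parts in the difference cannot be told apart.

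Ratios between 2 of the genes within a library do not depend on how libraries are scaled. Gene lengths differ, so only the change of a ratio between libraries is read. The ratio of Ryr2 counts to Atp2a2 counts, release channel to pump, was 0.126 to 0.171 in the 6 P7 libraries. The P3 libraries held 0.0206, 0.0263 and 0.143 after ABS and 0.135, 0.0171 and 0.0516 after sham surgery, in the order of replicates 1, 2 and 3. On the log2 scale it was higher at P7 by 1.73 (exact permutation test, p = 0.013), and by 0.61 without the 3 libraries with the fewest detected genes (exact p = 0.0714). Counts of Cacna1c per count of Ryr2, entry channel to release channel, ran the other way. That ratio was 0.198 to 0.251 at P7, against 0.786, 0.455 and 0.227 after ABS and 0.265, 0.897 and 0.356 after sham surgery at P3. It was lower at P7, with a log2 difference of -0.97 (exact p = 0.0065) and of -0.31 without those 3 libraries (exact p = 0.0357). The ratio of Gja1 to Atp2a2 was 0.0867 to 0.102 at P7 and 0.0603 to 0.134 at P3, with a log2 difference of 0.11 (exact p = 0.561), which turned to -0.25 without those 3 libraries (exact p = 0.0595). Between ABS and sham the 3 ratios overlapped on both days, with exact p of 0.2 to 1. Over the comparisons 15 exact tests of ratios were made, beside those without the 3 libraries, and their p-values are not adjusted.

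**Figure D4:**
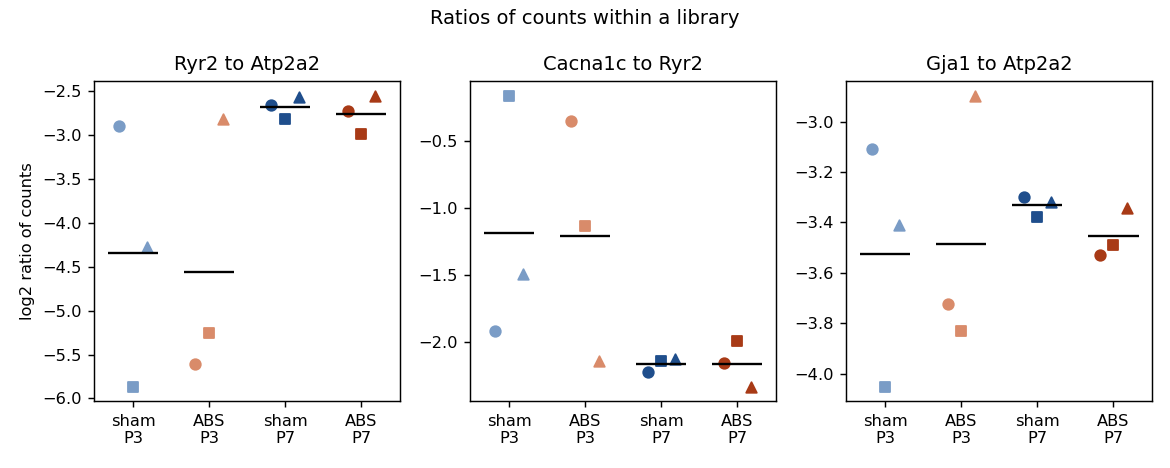
Log2 ratio of the counts of 2 genes within a library (y axis) for the 12 libraries by surgery and day, with a point per library, its replicate as the marker (circle 1, square 2, triangle 3) and a line at the group mean. The ratio of Ryr2 to Atp2a2 is low, and that of Cacna1c to Ryr2 high, in the P3 libraries with the fewest detected genes, ABS replicates 1 and 2 and sham replicate 2.

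The profiles of the 4 genes over the 12 libraries were compared as the root mean square difference of log2 CPM after each gene was centred on its own mean. Atp2a2 and Gja1 were the closest pair, at 0.30, and Atp2a2 and Ryr2 the farthest, at 1.23. Cacna1c lay between, at 0.39 from Gja1, 0.56 from Atp2a2 and 0.72 from Ryr2. Among 9129 other genes that averaged 10 CPM or more, the gene most like Ryr2 was ENSRNOG00000003576, at 0.18, with levels from 0.97 to 18.4 CPM. ENSRNOG00000007326 was most like Cacna1c at 0.11, ENSRNOG00000012054 most like Gja1 at 0.08 and ENSRNOG00000005330 most like Atp2a2 at 0.10. The median difference from all these genes was 1.51 for Ryr2, 0.87 for Cacna1c, 0.62 for Gja1 and 0.46 for Atp2a2. Among them, Gja1 ranked 2086th in likeness to Atp2a2, and Atp2a2 ranked 1096th in likeness to Gja1. Many other genes were thus closer to each than this closest pair of the 4 were to each other. Cacna1c ranked 621st in likeness to Ryr2, and Ryr2 3187th in likeness to Cacna1c. Gja1 ranked 775th in likeness to Cacna1c, and Cacna1c 1998th in likeness to Gja1. The difference also reflects how widely each gene varied, so the closest pair need not have the most similar shape. These are descriptions over libraries that share the spread of P3, and the symbols of the 4 named genes are not given in the files.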

How the data were processed

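Poly-A RNA of left ventricles was sequenced in 12 libraries, 3 for each surgery and day. The authors filtered the reads for adapters, unknown bases and quality, per the study's methods, and assigned them to genes with featureCounts. The deposited tables, 1 per library, hold raw counts. The submitters' processing notes name the aligner HISAT2 2.0.5 and the mouse builds GRCm38 and mm10, while the identifiers are rat Ensembl genes, so the build is uncertain. The strand setting is not given in the sources used here, so reads of overlapping or antisense genes may be included. Of 34733 rows, 1850 carry numbered names outside Ensembl, with 0.983% to 1.27% of a library's counts. None (0) of the 32883 Ensembl identifiers matched the RefSeq table given. The symbols of the 4 genes come from the identifiers that defined them, and lists of other calcium handling, gap junction, intercalated disc and cell type genes were not analysed here.

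Counts were tested with edgeR 4.0.16 in R 4.3.3 (TMM, filterByExpr, robust quasi-likelihood F test, two-sided), with Benjamini-Hochberg adjustment over all genes tested. Each comparison of 2 groups used their 6 libraries, and the interaction and the days over both surgeries (with surgery as a term) used all 12. All 4 genes passed the filter. CPM used TMM factors of the 12 libraries, and log2 CPM a prior count of 2. Ratios had 0.5 added to each count. Exact permutation tests were two-sided. The edgeR, DESeq2 and limma steps were tested on simulated data. DESeq2 1.42.0 and limma 3.58.1 (voom with sample quality weights) were alternatives, beside RLE factors, total counts, other filters (none, or 1 CPM in 3 libraries), 12 libraries in each fit, a replicate block, detected genes as a covariate and each library left out. Leaving out the 3 P3 libraries with under 16000 detected genes was chosen after seeing the data. The genes named are the 4 genes and, for each, the gene of most similar profile. The 4 genes, the motifs and all lists were chosen with earlier results of these data known.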

Additional observations from a re-analysis of the deposited data

How the results depend on the processing

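Counting error was at most 3.44% of a level, so depth did not limit the values of the 4 genes. The spread between libraries holds that of animals, RNA and library preparation, which cannot be told apart. Among the refitted log2 fold changes of the 4 genes, 333 kept their direction and side of the threshold, 24 newly passed in the same direction, 14 no longer passed and 49 changed direction, 2 of these passing in the new one. Causes of these changes were not tested, except that fits without libraries used fewer samples.

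Between ABS and sham, 0 of the 4 genes passed under any alternative, by adjusted p from 0.154 to 1. DESeq2 gave 4 genes at P3 and 10 at P7, against 0 and 0 from edgeR, and no filter gave 3 at P7. At P3, detected genes as a covariate turned Ryr2 to 0.94 and Cacna1c to 0.36, limma turned Atp2a2 to -0.039 and Gja1 to -0.30, and without the 3 libraries with few detected genes there were 8 genes, with 1 ABS library assumed to vary like the 2 sham libraries, and with Ryr2 at 0.70 and Cacna1c at 0.36. At P7, Gja1 was at -0.0062 by total counts (-0.0030 in the exact test) and at -0.028 by limma. Leaving out each library in turn gave, at P3, -1.81 to 1.18 for Ryr2, -0.92 to 0.52 for Cacna1c, -0.12 to 0.19 for Atp2a2 and -0.48 to 0.50 for Gja1, and at P7, 1 to 3 genes, -0.030 to 0.18 for Ryr2 and -0.058 to 0.091 for Gja1.

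For the interaction, DESeq2 gave 5 genes and limma 1, against 0. The covariate gave -0.072 for Atp2a2, -0.98 for Ryr2 and -0.34 for Cacna1c. limma gave 0.33 for Gja1, and the fit without the 3 libraries -0.016 for Atp2a2, -0.63 for Ryr2 and -0.29 for Cacna1c. Leaving out each library gave -0.073 to 0.24 for Atp2a2, -1.11 to 1.86 for Ryr2, -0.46 to 0.97 for Cacna1c and -0.50 to 0.47 for Gja1.

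Between the days after sham surgery, 1 gene passed with edgeR, 412 with DESeq2, 2 by total counts, 2 with no filter, 8 with the covariate, 6707 with limma, and 0 without the 3 libraries. The covariate gave -0.015 for Ryr2 and -0.29 for Gja1. With limma, Atp2a2 (0.41), Ryr2 (2.01), Cacna1c (1.28) and Gja1 (0.51) passed, as did 45.9% of all genes. Leaving out each library gave 0 to 4820 genes, the latter without sham replicate 1 of P3, with 0.91 to 2.62 for Ryr2 and 0.55 to 1.53 for Cacna1c.

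After ABS, 2 genes passed with edgeR, 490 with DESeq2, 0 by total counts, 14 with 12 libraries fitted, 1047 with the covariate, 6791 with limma and 486 without the 3 libraries, a fit with 1 P3 library that is assumed to vary like those of P7. The covariate gave -0.021 for Atp2a2, -1.60 for Ryr2, -0.61 for Cacna1c and -1.08 for Gja1. With limma, Atp2a2 (0.57), Ryr2 (3.01), Cacna1c (1.79) and Gja1 (0.82) passed, as did 46.8% of all genes. Without the 3 libraries Gja1 was at -0.35. Leaving out each library gave 0 to 7468 genes, the latter without ABS replicate 3 of P3, with 0.38 to 0.60 for Atp2a2, 1.09 to 3.27 for Ryr2, 0.79 to 1.84 for Cacna1c and 0.14 to 0.92 for Gja1.

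Over both surgeries, 2603 genes passed with edgeR, 4110 with DESeq2, 124 with the covariate, 7304 with limma and 506 without the 3 libraries. Ryr2 passed with DESeq2 (1.48) and limma (2.35), Cacna1c with both (1.00 and 1.40) and Gja1 with limma (0.63). Over all genes tested, 18.2% passed with DESeq2, and 7304 of 15236 passed with limma. The covariate gave 0.038 for Atp2a2, -0.54 for Ryr2, -0.18 for Cacna1c and -0.55 for Gja1. Atp2a2 no longer passed with no filter (0.44), with the covariate or without the 3 libraries (0.22, and 0.25 in the exact test), and Gja1 was then at -0.059. Without those libraries the ratio of Ryr2 to Atp2a2 was at 0.61 and that of Gja1 to Atp2a2 at -0.25. Leaving out each library gave 1069 to 6232 genes, 0.35 to 0.47 for Atp2a2, 1.26 to 2.18 for Ryr2, 0.84 to 1.28 for Cacna1c and 0.28 to 0.64 for Gja1. Without ABS replicate 3 of P3 there were 6232 genes, and without sham replicate 1 of P3 there were 5493.

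Replicate numbers were not used to pair libraries: over 15236 genes, ABS and sham libraries of the same number deviated from their group means with correlations of -0.45, 0.36 and -0.01 at P3 and of 0.01, 0.05 and 0.00 at P7. With the replicate block, Ryr2 was at 0.044 for ABS against sham at P3, 0 genes passed between the days after either surgery, and over both surgeries Atp2a2 was at 0.43 (adjusted p = 0.069 from edgeR). The block changed no other call of the 4 genes.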
